A study of Mus musculus with 18 samples.

Results

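The clustered histone genes of the mouse genome were examined in 4T1 mammary carcinoma cells and in 4T1R1 and 4T1R2, a pair of populations grown from 4T1 cells that survived 17-DMAG, a small-molecule inhibitor of the chaperone HSP90. Genes were taken whose symbol starts with Hist1h, Hist2h, Hist3h or Hist4h and whose raw count totalled at least 180 over the 18 libraries. This selection kept 58 of 68 such symbols among 24421 genes: 5 of 6 H1 genes, 14 of 18 H2A, 17 of 19 H2B, 10 of 12 H3 and 12 of 13 H4. The members were thus chosen by their total count, which is given here as a description. Just inside the minimum lay Hist1h2aa with 215 counts and Hist1h2ba with 322, and just outside lay Hist1h1t with 36 and Hist2h2aa2 with 7. The other 8 symbols (Hist1h2ao, Hist1h2ap, Hist1h2bq, Hist1h2br, Hist1h4m, Hist2h2aa1, Hist2h3c1 and Hist2h3c2) were listed at 0 counts in all libraries. All 58 members passed the filter on low counts, Hist1h2aa and Hist1h2ba only through the groups in which they were high.

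There were 6 groups of 3 libraries, untreated and 17-DMAG-treated cells of each of the 3 populations. All were the 4T1 line, a breast carcinoma of BALB/cfC3H origin labelled wild type. Both 4T1R1 and 4T1R2 had been taken through 3 rounds of 1.5 µM 17-DMAG lasting 48 h each, so each stands for 1 selected population. The treated groups received 1.5 µM 17-DMAG, for 48 h according to the sample records and for 2 h according to the text of the series; the sources do not settle which. The names of the 4T1R1 libraries come from another number series than those of 4T1 and 4T1R2, so that 4T1R1 and its set of libraries cannot be told apart.

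In proliferating cells most of the histone protein that packs newly copied DNA comes from these small, mostly intronless genes, whose mRNAs rise when DNA is replicated. Their mRNAs end in a stem-loop in place of a poly(A) tail. The stem-loop is bound by SLBP, and the transcription of the clusters is driven through NPAT. H2A, H2B, H3 and H4 form the nucleosome core, and H1 binds the DNA between the cores. Counting such RNAs needs libraries that do not select poly(A), and here ribosomal RNA was depleted from total RNA instead.

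Libraries held 23354461 to 55094630 counts, of which the members took 0.599% to 0.842%. The ribosomal precursor Rn45s took 9.54% to 15.6%. In 17-DMAG-treated 4T1, the libraries of replicates 1 and 2 had a chi-square per gene of 1.10, against 2.04 to 2.22 for the other 17 pairs of a group, and were averaged as 1 sample, leaving 2 samples in that group and 17 in all. All 6 epithelial carcinoma markers were present in the libraries, with summed levels by library total of 2008 to 2030 CPM in untreated 4T1, 1765 to 1785 in treated 4T1, 1426 to 1484 in 4T1R1 and 1583 to 1630 in 4T1R2. Of 6 fibroblast markers 1 reached 1 CPM and Lum was at 0, with sums of 22.3 to 24.7 CPM in untreated 4T1, 11.5 to 12.6 in treated 4T1 and 23.4 to 34.0 in the resistant populations. The part of these marker levels in the results was not tested. In bulk RNA, fewer cells carrying a transcript and less of it per cell cannot be told apart. Levels of single genes below are normalized counts, scaled to a library of 30965291 counts, and differences are log2 differences with their standard error (SE) from edgeR's quasi-likelihood test, with p adjusted over all 13507 genes tested. A member is said to have risen or fallen where its adjusted p lay under 0.05.

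The 3' ends are shown first, because they set these transcripts apart from those of most other genes. Of 41 members whose annotated transcript (GENCODE, GRCm38) reached past the stop codon far enough, 36 held a match to the histone stem-loop, searched as a stem of 6 pairs beginning with GG and ending with CC around a loop of 4 bases. The remaining 5, Hist1h1a, Hist1h2bc, Hist1h3g, Hist1h4a and Hist2h2be, held no match in the annotated sequence, and 17 could not be assessed. Only 6 distinct stem-loops occurred among the 36, one of them in 20 members. One gene for each of the 6 is printed with 5 bases on either side, the stem-loop in capitals. They lie at chr13:23621777-23621802 (- strand), chr13:23581945-23581970 (+ strand), chr13:23561898-23561923 (- strand), chr13:23757361-23757386 (+ strand), chr3:96262934-96262959 (- strand) and chr3:96220413-96220438 (- strand), in this order.
Hist1h1e: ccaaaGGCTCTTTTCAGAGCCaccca
Hist1h4d: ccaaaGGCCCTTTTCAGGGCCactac
Hist1h3e: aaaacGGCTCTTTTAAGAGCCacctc
Hist1h4b: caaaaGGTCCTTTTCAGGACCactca
Hist2h4: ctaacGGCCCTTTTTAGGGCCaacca
Hist2h2ac: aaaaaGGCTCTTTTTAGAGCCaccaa
The stem form of Hist1h1e was shared by 20 members, that of Hist1h4d by 6, that of Hist1h3e by 5, those of Hist1h4b and Hist2h4 by 2 each, and that of Hist2h2ac occurred once.

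Most members also share stretches of transcript sequence with other genes, which bears on how well reads can be assigned. At least 1 window of 50 bases in the transcripts of 55 of the 58 members also occurred in another gene. The median share of such windows was 2.3% for the H1 genes, 61.4% for H2A, 43.8% for H2B, 57.2% for H3 and 34.2% for H4, and 25 members shared over 50%. How reads that match several genes were counted is not given in the sources used here, so the values of single members of these 25 are uncertain. Of those described below they include Hist1h2ab, Hist1h2ad, Hist1h2ah, Hist1h2ak, Hist1h2an, Hist1h2bf, Hist1h2bk, Hist1h2bn, Hist1h3e, Hist1h3g, Hist1h3h, Hist1h4b, Hist1h4k, Hist1h4n, Hist2h2ac, Hist2h2bb and Hist2h3b, but not Hist1h1b, Hist2h4, Hist4h4, Hist1h4c or Hist1h4d. Exons of 19 members overlapped another gene, 17 of them on the opposite strand. The library kit marks strand, but the strand setting of the counting is not given in the sources used here.

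Promoters were read from RefSeq (GRCm38.p6) for the 52 members that matched, as windows from 250 bases before to 50 after the start, and 4 motifs were searched on both strands. A TATA box, TATAAA, occurred in 63.5% of the members against 13.6% of all 32851 promoters, and CCAAT in 84.6% against 37.4%. All 41 windows of H1, H2A, H2B and H3 genes held CCAAT, but only 3 of 11 of H4 genes did. The octamer ATTTGCAT, known as a site for OCT1 in H2B promoters, stood in 7 of 14 H2A and 7 of 14 H2B windows, in no other member, and in 1.74% of all promoters. AAACACA, an element known from H1 promoters, stood in 4 of 5 H1, 2 of 14 H2A and 2 of 14 H2B windows and in 7.18% of all promoters. The 120 bases before the start are printed for Hist1h1b, at chr13:21780626-21780745 (- strand), which fell in both resistant populations, for Hist1h2bf and Hist1h2ad, a divergent pair at chr13:23574208-23574327 (- strand) and chr13:23574261-23574380 (+ strand) that shares part of its window and was higher in 4T1R1, and for Hist1h3g, at chr13:23535298-23535417 (+ strand), which fell under 17-DMAG. Capitals mark the motifs.
Hist1h1b: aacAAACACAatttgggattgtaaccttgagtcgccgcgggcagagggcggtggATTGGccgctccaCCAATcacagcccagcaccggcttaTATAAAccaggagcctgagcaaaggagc
Hist1h2bf: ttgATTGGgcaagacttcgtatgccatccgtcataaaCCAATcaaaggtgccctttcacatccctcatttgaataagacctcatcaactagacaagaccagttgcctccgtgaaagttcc
Hist1h2ad: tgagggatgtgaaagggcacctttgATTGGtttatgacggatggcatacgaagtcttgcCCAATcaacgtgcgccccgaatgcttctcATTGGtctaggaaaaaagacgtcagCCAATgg
Hist1h3g: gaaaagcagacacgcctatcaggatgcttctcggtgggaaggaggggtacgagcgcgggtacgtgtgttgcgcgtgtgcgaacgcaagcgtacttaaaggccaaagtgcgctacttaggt
The window of Hist1h1b carries the H1 element, the TATA motif and a CCAAT motif on each strand. Hist1h3g holds none of the 4 motifs in the bases shown.

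The members lie in 5 places. On chromosome 13 a proximal block spans chr13:21715711-22043658 (328 kb, 18 members) and a distal block chr13:23531044-23934913 (404 kb, 30 members), with 1487 kb between them. The others lie on chromosome 3 (6 members, chr3:96219885-96270192), chromosome 11 (3 members of the Hist3 group, chr11:58948911-58955192) and chromosome 6 (Hist4h4, chr6:136803993-136804431). Positions are from RefSeq on GRCm38.p6. The split by position was made after the values had been seen, and serves as a description.

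Together the members gave 8152 ± 324.7 CPM in untreated 4T1 (SD, n = 3), where CPM are counts relative to a common library size after TMM scaling. H4 genes supplied 29.1% to 31.4% of the members' sum in every group, H2B genes 22.9% to 25.9%, H1 genes 19.4% to 22.4%, H3 genes 12.4% to 14.7% and H2A genes 10.4% to 12.2%. Per kilobase of gene, the highest level in untreated 4T1 was that of Hist1h4d, 1274 ± 54.2 CPM per kb (SD, n = 3), above Hist2h2bb at 1125 ± 11.9, and their libraries did not overlap. The linker histone gene Hist1h1e (701.8 ± 5.12) and Hist1h4h (688.5 ± 43.8) followed on the same scale and overlapped, as did Hist1h4f (634.8 ± 39.0) and Hist1h1d (634.2 ± 12.1). At the low end lay Hist1h1a (1.34 ± 0.435), Hist2h2be (1.21 ± 0.098) and Hist1h2ba (0.36 ± 0.165), a histone gene known from testis. Hist1h1a and Hist2h2be overlapped, and Hist1h2ba lay below both. Hist1h2aa, its neighbor, had no count in 4T1. Hist2h2bb is uncertain here, since all of its windows also occur in overlapping gene models.

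The members with the highest totals of their class did not all follow 1 pattern. Hist1h1e, for the linker histone H1.4, had 17129, 16887 and 16964 normalized counts in untreated 4T1, 12353, 12821 and 10940 in untreated 4T1R1 and 14407, 13938 and 13164 in untreated 4T1R2, and 17987 and 17520, 10675, 10900 and 11231 and 13733, 13466 and 14250 in the treated samples of the same populations. All 4T1 samples, treated or not, lay above all resistant libraries. Hist1h1d, for H1.3, had 14920, 15492 and 15304 normalized counts in untreated 4T1, 13249, 13563 and 11967 in untreated 4T1R1 and 13112, 12723 and 12683 in untreated 4T1R2, and 11272 and 10898, 11197, 11466 and 11304 and 12779, 12128 and 13291 in the treated samples of the same populations. Untreated 4T1 was above all other groups, and treated 4T1 and treated 4T1R1 were the lowest.

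The H2A gene Hist2h2ac had 6063, 6419 and 6144 normalized counts in untreated 4T1, 4605, 5003 and 4213 in untreated 4T1R1 and 5199, 5244 and 5030 in untreated 4T1R2, and 4911 and 4797, 3836, 4051 and 3857 and 4695, 4600 and 4970 in the treated samples of the same populations. Untreated 4T1 was again above all others and treated 4T1R1 below all others. The H2A gene Hist1h2ak, of the proximal block, had 4630, 5167 and 4915 normalized counts in untreated 4T1, 4064, 4661 and 3787 in untreated 4T1R1 and 3446, 3194 and 3048 in untreated 4T1R2, and 4837 and 4672, 3740, 4104 and 4115 and 2966, 2861 and 3191 in the treated samples of the same populations. Here every 4T1R2 library lay below every other sample. The H2B gene Hist1h2bg had 5617, 5782 and 5877 normalized counts in untreated 4T1, 5998, 6335 and 5765 in untreated 4T1R1 and 6253, 5872 and 5853 in untreated 4T1R2, and 5925 and 5938, 5647, 6116 and 5828 and 5765, 5535 and 6100 in the treated samples of the same populations. It did not pass the test in any of the 8 comparisons, and its 17 samples lay between 5535 and 6335.

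The H3 gene Hist1h3e had 4894, 5789 and 5467 normalized counts in untreated 4T1, 5151, 5855 and 4577 in untreated 4T1R1 and 5602, 5263 and 4851 in untreated 4T1R2, and 5152 and 5119, 3955, 4521 and 4311 and 4722, 4315 and 5547 in the treated samples of the same populations. It passed only under 17-DMAG in 4T1R1 among the 8 comparisons, at -0.28 ± 0.07 (SE, adjusted p = 0.000968). The H4 gene Hist1h4d had 15099, 16384 and 16097 normalized counts in untreated 4T1, 13192, 15091 and 12515 in untreated 4T1R1 and 15430, 14296 and 13999 in untreated 4T1R2, and 17838 and 17039, 11495, 12579 and 12871 and 14171, 13754 and 14987 in the treated samples of the same populations. Its highest group was treated 4T1. The H4 gene Hist1h4h had 8605, 9720 and 9499 normalized counts in untreated 4T1, 7068, 8245 and 6720 in untreated 4T1R1 and 8563, 7946 and 7689 in untreated 4T1R2, and 8794 and 8636, 5701, 6545 and 6495 and 7811, 7275 and 8408 in the treated samples of the same populations. Treated 4T1R1 lay below all other groups.

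**Figure D1:**
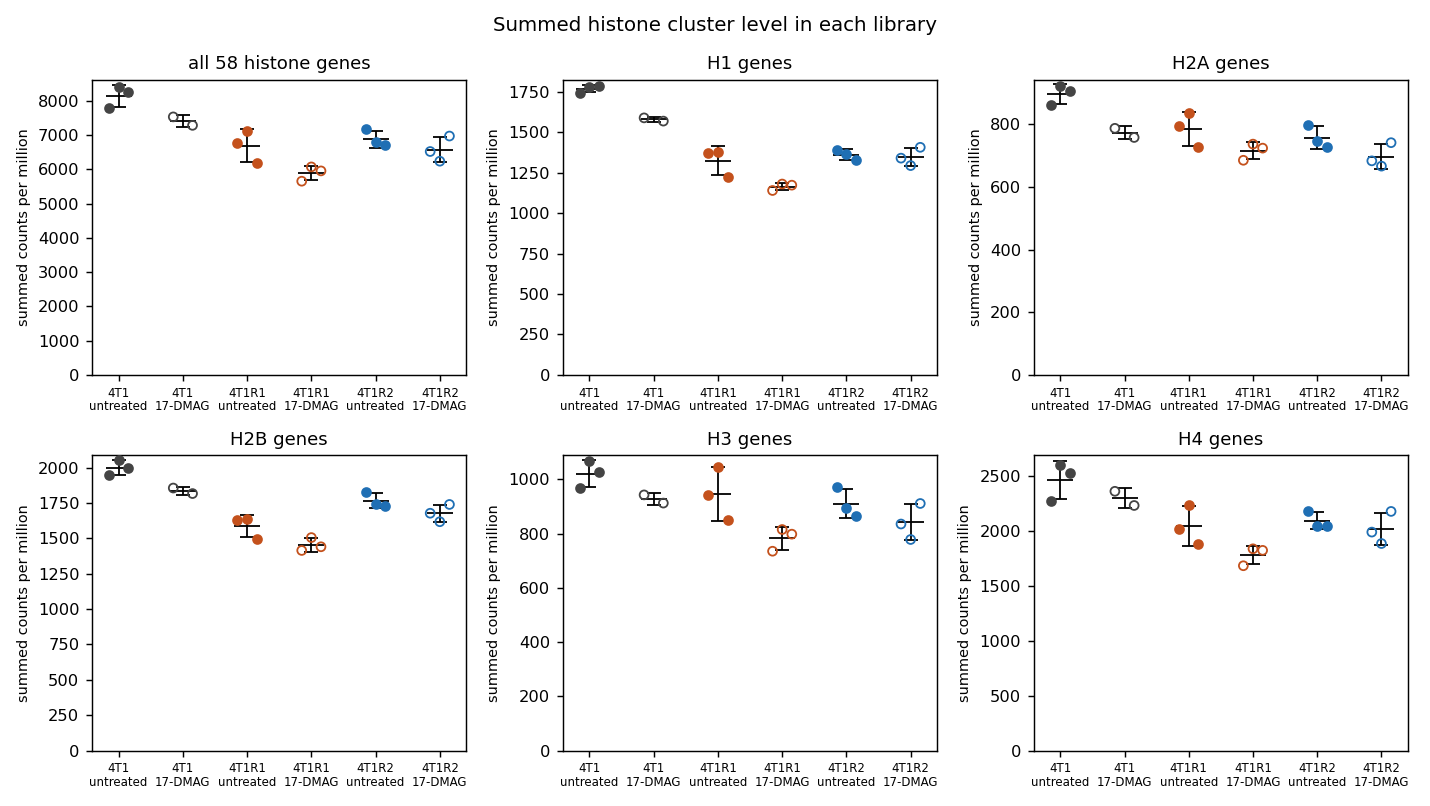
Summed CPM of all 58 members and of each histone class, for each library by group; lines and bars are the group mean and SD, and open points are treated. For all members, the 3 untreated 4T1 libraries lie between 7791 and 8420 and all others lie below them, down to 5655 in treated 4T1R1.

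Most histone genes were lower in the resistant populations than in 4T1. In untreated 4T1R1, 36 of 58 members fell and 5 rose relative to untreated 4T1. In untreated 4T1R2, 31 fell and 8 rose. Without Hist1h2aa and Hist1h2ba, which passed the filter only through these groups, 3 and 6 rose. Over all genes tested, 27.5% fell and 25.2% rose in 4T1R1, and 26.9% fell and 25.6% rose in 4T1R2. The median log2 difference of the members was -0.23 in 4T1R1 and -0.14 in 4T1R2, against 0.008 and 0.007 over all genes. The 2 comparisons share the untreated 4T1 libraries. Of the members that fell, 29 did so in both, 80.6% of the 36 and 93.5% of the 31.

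The summed level was 6688 ± 484.6 CPM in untreated 4T1R1 and 6886 ± 249.2 in untreated 4T1R2 (SD, n = 3 each). These means differ from untreated 4T1 by -18.0% and -15.5%, and neither group overlapped it. By class, 4 of 5 H1, 7 of 14 H2A, 11 of 17 H2B, 4 of 10 H3 and 10 of 12 H4 genes fell in 4T1R1, and 4, 7, 6, 5 and 9 in 4T1R2. In 4T1R1 some other RNAs without poly(A) tails were lower too, 3 of the 6 tested with 1 higher and a list median of -0.46. Among them the RNA component of RNase MRP, Rmrp, differed by -0.58, and the minor spliceosomal RNA Rnu12 by -1.61. In 4T1R2 1 of the 6 rose and the list median was 0.02. The part of this in the 4T1R1 results was not tested.

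The fall was uneven along the genome. All 18 members of the proximal chromosome 13 block fell in 4T1R1, with log2 differences from -0.78 to -0.20 and a median of -0.43. In 4T1R2, 17 of the 18 fell, with a median of -0.64. The exception was Hist1h2bp, -0.07 ± 0.08 (SE, adjusted p = 0.441). In the distal block, 13 of 30 fell and 5 rose in 4T1R1, 11 fell and 4 rose in 4T1R2, and the median was -0.08 in both. The 5 and the 4 include Hist1h2aa and Hist1h2ba, which passed the filter on low counts only through the resistant groups. The sum over the proximal block differed from untreated 4T1 by -29.4% in 4T1R1 and -37.5% in 4T1R2, that over the distal block by -12.8% and -9.15%, and that over chromosome 3 by -24.8% and -8.09%. On chromosome 3, 5 of 6 members fell in 4T1R1 (median -0.30), and 3 fell and 1 rose in 4T1R2 (median -0.09). Outside the proximal block 18 of 40 members fell and 5 rose in 4T1R1 (median -0.08). In 4T1R2 14 of 40 fell and 8 rose (median -0.06). The rises again include Hist1h2aa and Hist1h2ba. The shares of all genes were 27.5% lower and 25.2% higher in 4T1R1, and 26.9% and 25.6% in 4T1R2.

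The 5 proximal members with at most 50% of their windows shared all fell in 4T1R1 (median -0.59), and 4 of them did in 4T1R2 (median -0.68). The other 13 all fell in both, with medians of -0.40 and -0.64. The part of shared reads in these values was not tested.

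**Figure D2:**
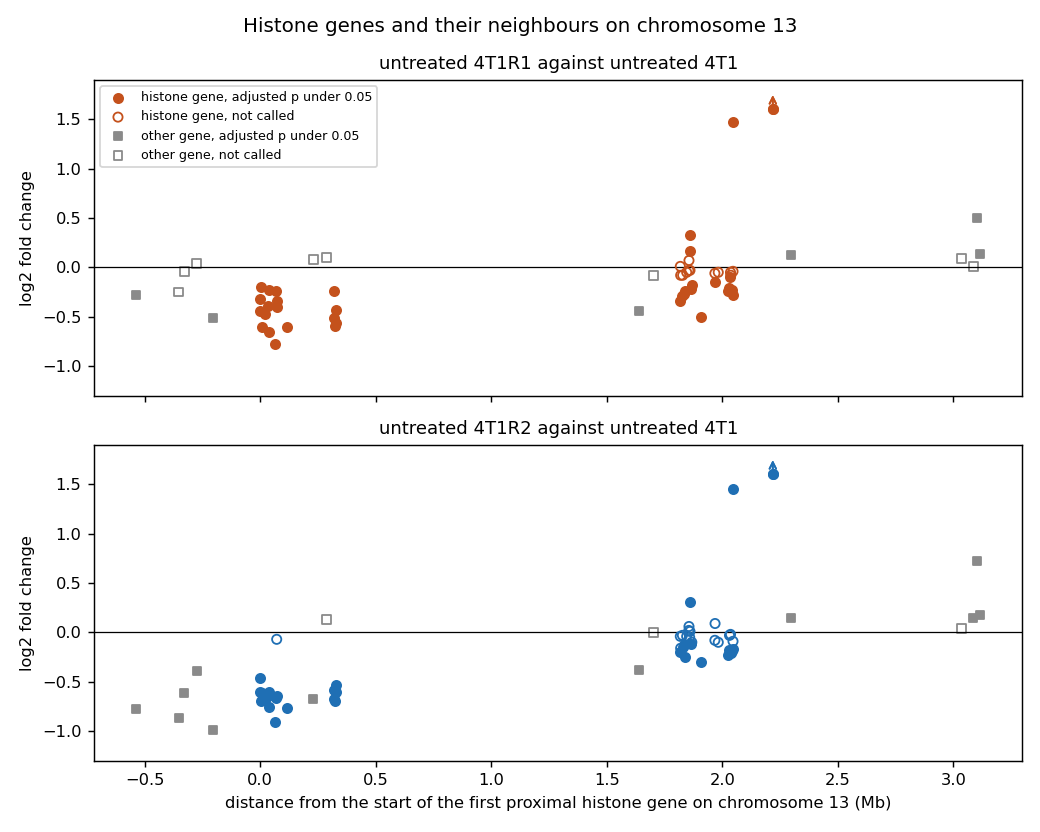
Log2 difference of the chromosome 13 members (circles) and neighboring genes (squares) in untreated 4T1R1 and 4T1R2 against untreated 4T1, by distance in Mb from the first proximal member. Filled marks passed the test. Hist1h2aa and Hist1h2ba, beyond the axis, are drawn as circles near its top with arrows. All 18 proximal members lie below 0 in both panels, while distal members lie on both sides of 0.

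Other genes of the region were looked at after the members' pattern was seen, taking those with at least 100 normalized counts within 1 Mb. On the side before the proximal block lie 5, which encode the ubiquitin ligase TRIM27 and 4 zinc-finger proteins. All 5 fell in 4T1R2. Trim27 differed by -0.78 (adjusted p = 4.61e-19) and Zkscan8 by -0.99 (adjusted p = 2.33e-13), and the 5 had a median of -0.78. In 4T1R1, 2 of the 5 fell, Trim27 at -0.28 (adjusted p = 2.76e-07) and Zkscan8 at -0.51 (adjusted p = 5.8e-07). All 5 were lower in 4T1R2 than in 4T1R1.
Within the block, the zinc-finger gene Zfp184 fell in 4T1R2, at -0.67 (adjusted p = 0.000895), and had a value of 0.08 in 4T1R1 (adjusted p = 0.696). Prss16, which encodes a thymic serine protease, did not pass in either. Between the blocks lie another pair, of which the zinc-finger gene Zfp322a fell in both, at -0.44 in 4T1R1 (adjusted p = 6.16e-07) and -0.38 in 4T1R2 (adjusted p = 1.18e-05), and Abt1, at -0.08 and 0.00, did not pass. Beyond the distal block lie another 5 genes, of which 3 rose in 4T1R1 and 4 in 4T1R2, with Acot13, encoding an acyl-CoA thioesterase, at 0.50 (adjusted p = 2.55e-06) and 0.72 (adjusted p = 1.08e-09).

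Hist1h1b, which encodes the linker histone H1.5 and lies in the proximal block, had the largest fall of any member in both comparisons. It had 11391, 11712 and 12047 normalized counts in untreated 4T1, 7133, 6818 and 6497 in untreated 4T1R1 and 6129, 6334 and 6221 in untreated 4T1R2. Every resistant library lay below every 4T1 library. The log2 difference was -0.78 ± 0.03 (SE, adjusted p = 1.55e-22) in 4T1R1, and -0.91 ± 0.03 (SE, adjusted p = 1.31e-24) in 4T1R2. It shares no window with another gene.

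The H2B gene Hist1h2bn had 3564, 3764 and 3539 normalized counts in untreated 4T1, 2288, 2440 and 2180 in 4T1R1 and 2300, 2072 and 2041 in 4T1R2. The resistant groups lay below 4T1 without overlap, with log2 differences of -0.65 ± 0.05 (SE, adjusted p = 3.1e-15) and -0.76 ± 0.05 (SE, adjusted p = 5.28e-17). The H4 gene Hist1h4n, also proximal, went from 3688, 4205 and 4122 in 4T1 to 2628, 2977 and 2356 in 4T1R1 and 2467, 2342 and 2224 in 4T1R2, again without overlap. Its differences were -0.60 ± 0.05 (SE, adjusted p = 2.2e-12) and -0.77 ± 0.06 (SE, adjusted p = 2.08e-15). Of the abundant members outside the proximal block, Hist2h2bb differed by -0.51 in 4T1R1 and -0.11 in 4T1R2 (adjusted p = 2.06e-17 and 0.00217). Hist1h1e, for H1.4, differed by -0.50 in 4T1R1 and -0.30 in 4T1R2, Hist1h1d, for H1.3, by -0.24 and -0.25, Hist1h4h by -0.34 and -0.20, and Hist1h4d by -0.22 and -0.12. All 5 passed the test in both. Hist1h2bg and Hist1h3e, also abundant and outside the block, passed in neither.

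A few members moved up, and a pair of them, Hist1h2aa and Hist1h2ba, lies side by side at the far end of the distal block. Hist1h2ba, the testis-type H2B gene, had 7.25, 4.27 and 2.93 normalized counts in untreated 4T1, 28.3, 12.5 and 27.9 in 4T1R1 and 24.0, 28.7 and 22.2 in 4T1R2. The groups did not overlap. Since it passed the filter on low counts only through its high groups, these levels are a description. The H2A gene Hist1h2aa had no count in any of the 5 samples of 4T1, treated or not, 13.6, 18.8 and 18.6 normalized counts in untreated 4T1R1 and 19.2, 18.3 and 17.5 in untreated 4T1R2. Against a floor of 3 counts per library, 3.08 normalized counts, untreated 4T1R1 was at least 5.52-fold higher than untreated 4T1, and for untreated 4T1R2 the bound was at least 5.95-fold. Both are known chiefly from male germ cells and their levels here were low.

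Hist1h2aa and Hist1h2ba start 280 bases apart and are read in opposite directions. Their common promoter is shown as 250 bases, chr13:23934187-23934436 (+ strand), with motifs on either strand in capitals.
Hist1h2aa: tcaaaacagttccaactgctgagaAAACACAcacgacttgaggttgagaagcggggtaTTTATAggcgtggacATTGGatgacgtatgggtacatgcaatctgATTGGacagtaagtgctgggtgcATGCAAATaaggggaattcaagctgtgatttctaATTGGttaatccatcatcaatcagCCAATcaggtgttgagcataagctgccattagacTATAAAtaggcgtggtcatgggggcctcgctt
It holds 2 TATA boxes, 4 CCAAT, 1 octamer and 1 AAACACA.

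Hist1h1a, for H1.1, had 41.4, 29.9 and 21.5 normalized counts in untreated 4T1, 81.8, 79.3 and 94.7 in 4T1R1 and 81.5, 75.6 and 95.9 in 4T1R2. It lay higher without overlap in both, with log2 differences of 1.47 ± 0.23 (SE, adjusted p = 6.17e-07) and 1.45 ± 0.23 (SE, adjusted p = 1.06e-06). Among abundant members Hist1h2bf rose, with 719.9, 625.1 and 709.0 in 4T1, 900.3, 921.9 and 771.7 in 4T1R1 and 889.1, 835.9 and 814.0 in 4T1R2. Its differences were 0.33 ± 0.07 (SE, adjusted p = 0.000185) and 0.31 ± 0.07 (SE, adjusted p = 0.000617). Its divergent partner Hist1h2ad had 753.0, 862.3 and 906.0 in 4T1 and 996.8, 966.8 and 881.2 in 4T1R1. These groups overlapped, and the difference was 0.17 ± 0.07 (SE, adjusted p = 0.0432). The call was lost without untreated 4T1R1 replicate 1 (0.13) or 2 (0.16) or untreated 4T1 replicate 1 (0.10). Hist2h2be on chromosome 3, an H2B gene annotated with a long transcript, had 91.1, 100.4 and 107.3 in 4T1 and 122.8, 140.8 and 122.8 in 4T1R2, a difference of 0.36 ± 0.15 (SE, adjusted p = 0.0423). That call was lost on leaving out untreated 4T1 replicate 1 (0.30) or 2 (0.37), or any of the untreated 4T1R2 replicates (0.40, 0.30 and 0.40).

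**Figure D3:**
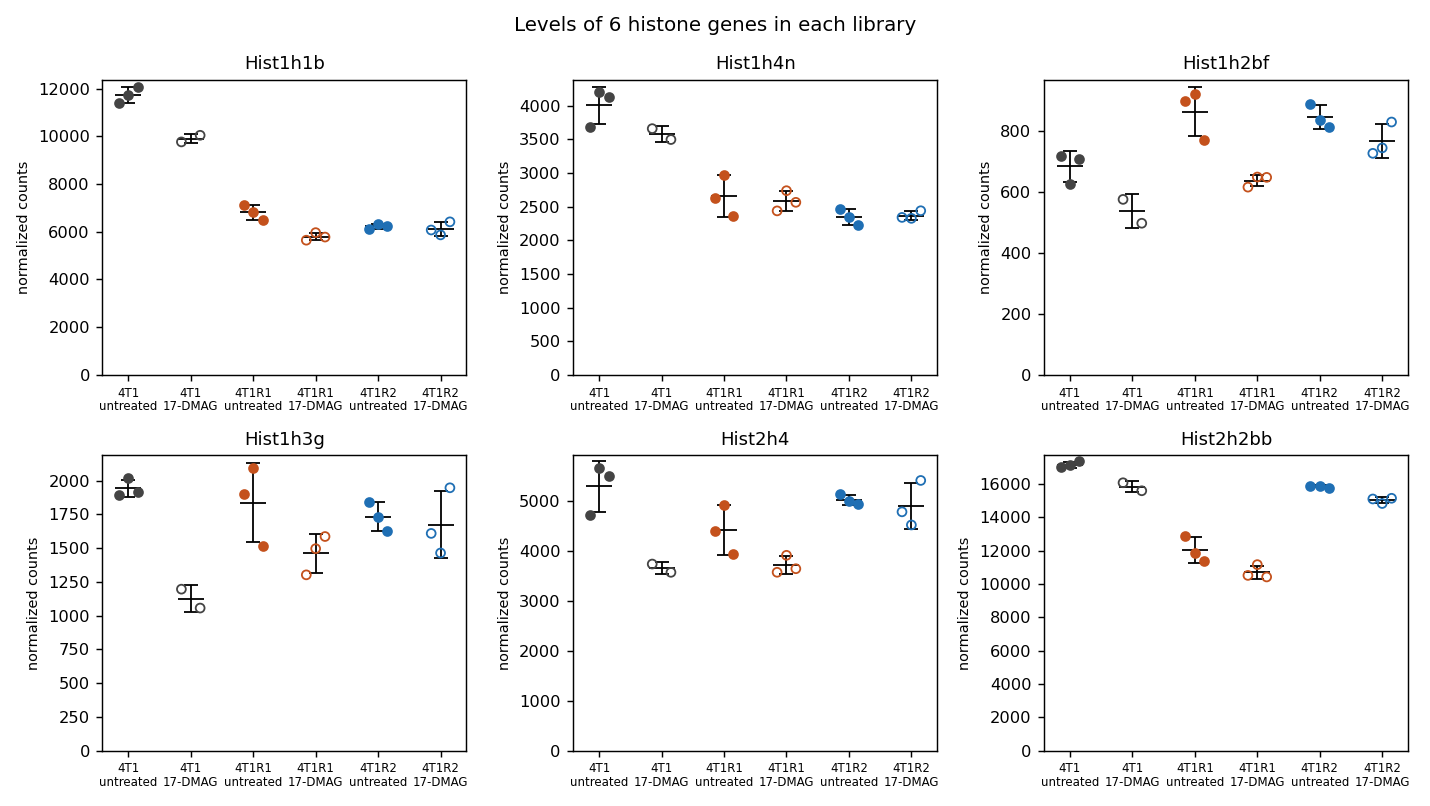
Normalized counts of Hist1h1b, Hist1h4n, Hist1h2bf, Hist1h3g, Hist2h4 and Hist2h2bb in each library by group; lines and bars are the group mean and SD, and open points are treated. Hist1h1b and Hist1h4n are lower and Hist1h2bf is higher in the untreated 4T1R1 and 4T1R2 libraries than in untreated 4T1, while Hist1h3g and Hist2h4 have their lowest group means in treated 4T1 and treated 4T1R1.

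Between the resistant populations, 13 members were higher and 12 lower in untreated 4T1R2 than in untreated 4T1R1, against 19.7% and 19.0% of all genes. Both counts lay near those shares, and the median was -0.01, against -0.008 over all genes. The place on the genome again differed: 10 of the 12 lower members were proximal, where 1 was higher, while 4 of 6 chromosome 3 members and all 3 chromosome 11 members were higher. The H3 gene Hist1h3h had 1769, 1801 and 1543 normalized counts in 4T1R1 and 1250, 1256 and 1133 in 4T1R2, a difference of -0.49 ± 0.06 (SE, adjusted p = 6.29e-09). The H2A gene Hist1h2ah had 901.3, 919.8 and 783.7 and 709.7, 670.3 and 543.8, a difference of -0.43 ± 0.08 (SE, adjusted p = 2.62e-05). In both genes all 4T1R2 libraries lay below all those of 4T1R1. Both are proximal, and both share over 50% of their windows with other genes.

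In the other direction, Hist2h2bb had 12893, 11876 and 11365 in 4T1R1 and 15891, 15897 and 15794 in 4T1R2, with no overlap and a difference of 0.40 ± 0.03 (SE, adjusted p = 1.88e-13). Untreated 4T1 held 17016, 17119 and 17370, so that the low group was 4T1R1, as it was in treated cells (16083 and 15602 in 4T1, 10520, 11167 and 10427 in 4T1R1 and 15109, 14837 and 15151 in 4T1R2). Hist1h2bp had 532.0, 599.7 and 531.1 in 4T1R1 and 726.0, 637.7 and 625.7 in 4T1R2, a difference of 0.26 ± 0.08 (SE, adjusted p = 0.0053) that was 0.19 and no longer passed without untreated 4T1R2 replicate 1. The chromosome 11 genes Hist3h2ba and Hist3h2bb-ps, the latter annotated as a pseudogene, were higher by 0.95 (adjusted p = 0.00126) and 0.92 (adjusted p = 0.00147).

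Under 17-DMAG the histone genes of 4T1 fell across all 5 classes. Of 58 members 34 fell and 2 rose, against 17.9% and 18.4% of all genes, and the median log2 difference was -0.19 against 0.001. By class, 2 of 5 H1, 7 of 14 H2A, 12 of 17 H2B, 5 of 10 H3 and 8 of 12 H4 genes fell. The summed level was 7409 ± 175.1 CPM (SD, n = 2), a difference of -9.11% from untreated 4T1 and without overlap. The treated group rests on 2 samples. When 1 sample at a time was left out, the members' median ranged from -0.22 to -0.14.

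Here the fall was not a matter of the proximal block. It took in 12 of 18 proximal members (median -0.20), 13 of 30 distal ones (median -0.14), 5 of 6 on chromosome 3 (median -0.33), all 3 on chromosome 11 (median -1.06) and Hist4h4 on chromosome 6. Hist1h3g, an H3 gene of the distal block, had 1895, 2016 and 1918 normalized counts in untreated and 1196 and 1056 in treated 4T1. The groups lay far apart, with a difference of -0.78 ± 0.09 (SE, adjusted p = 5.19e-09). Hist2h4, an H4 gene on chromosome 3, went from 4712, 5662 and 5502 to 3738 and 3572, with no overlap and a difference of -0.53 ± 0.07 (SE, adjusted p = 1.02e-08).

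Hist4h4 went from 5537, 6373 and 5886 to 4363 and 3858, with a difference of -0.53 ± 0.06 (SE, adjusted p = 7.31e-09). Hist1h1d differed by -0.46 ± 0.04 (SE, adjusted p = 3.41e-13), and Hist1h2an differed by -0.49 ± 0.07 (SE, adjusted p = 2.9e-07). The low chromosome 11 genes had the largest values. Hist3h2ba differed by -1.38 ± 0.33 (SE, adjusted p = 0.000869), and Hist3h2bb-ps by -1.06 ± 0.29 (SE, adjusted p = 0.00364). Both members that rose were H4 genes, Hist1h4c at 0.16 ± 0.06 (SE, adjusted p = 0.0395), and Hist1h4d at 0.14 ± 0.05 (SE, adjusted p = 0.0251). Neither passed under scaling by total counts alone, where Hist1h4c was at 0.05 and Hist1h4d at 0.02, or under DESeq2 (0.16 and 0.13). Both calls were also lost without untreated 4T1 replicate 1 (0.09 and 0.10) or the averaged treated sample (0.15 and 0.11), and that of Hist1h4c without treated 4T1 replicate 3 (0.17) or untreated 4T1R2 replicate 3 (0.16). That scaling moved the median of all genes to -0.114 in this comparison, with 1193 genes up and 4322 down in place of 2490 and 2423.

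**Figure D4:**
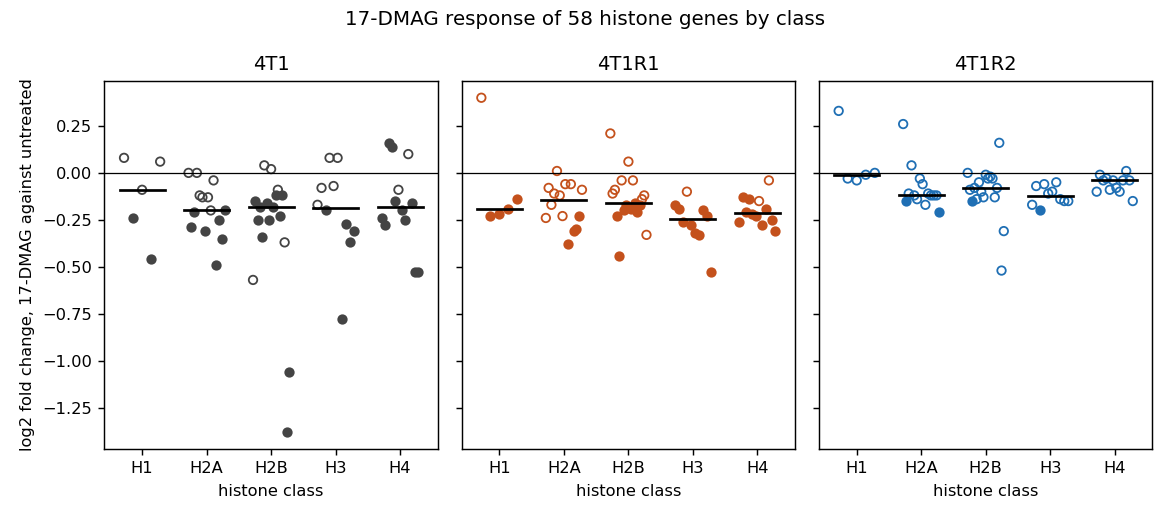
Log2 difference of each member, by histone class, for the 17-DMAG comparison in 4T1, 4T1R1 and 4T1R2. Filled points passed the test and bars are class medians, all of which lie below 0, with 34 members lower in 4T1, 35 in 4T1R1 and 4 in 4T1R2.

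In 4T1R1, 35 members fell under 17-DMAG and 0 rose by edgeR's test, against 14.3% and 13.9% of all genes, with a median of -0.19 against -0.009. At an unadjusted p under 0.05, 1 member was higher, and DESeq2 called 0 higher. The summed level was 5894 ± 215.0 CPM (SD, n = 3), a difference of -11.9% from untreated 4T1R1. The H3 genes took part most fully, 9 of 10 (median -0.25), beside 4 of 5 H1, 4 of 14 H2A, 8 of 17 H2B and 10 of 12 H4 genes. Hist2h3b had 2668, 3066 and 2363 normalized counts in untreated and 1789, 1840 and 1975 in treated 4T1R1. The treated libraries all lay lower, with a difference of -0.53 ± 0.07 (SE, adjusted p = 1.1e-07). Hist1h2bf went from 900.3, 921.9 and 771.7 to 616.4, 649.6 and 648.5, again without overlap, a difference of -0.44 ± 0.07 (SE, adjusted p = 1.54e-05). Among the RNAs without poly(A) tails, 4 of 6 fell here (median -0.31), Rn45s with a difference of -0.45 ± 0.06 (SE, adjusted p = 2.73e-07), whereas in treated 4T1 2 rose and 1 fell and Rn45s differed by 0.42 ± 0.07 (SE, adjusted p = 3.03e-06). Their part in the members' values was not tested.

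In 4T1R2 the members changed least. Hist3h2a, Hist1h3c, Hist1h2ab and Hist1h2bc fell, 4 of 58 against 4.35% of all genes, and 0 rose against 6.18%, with a median of -0.08 against -0.002. At an unadjusted p under 0.05 by edgeR the count higher was also 0, as it was by DESeq2. The count that fell depended on the settings: it was 8 without the filter on low counts, where 577 of 18785 genes fell, 9 with only the 2 groups fitted (643 of 12710) and 17 with total counts alone (1146 of 13507). Hist3h2a, an H2A gene, had 2519, 2214 and 2254 normalized counts in untreated and 1988, 1936 and 2152 in treated 4T1R2, a difference of -0.21 ± 0.05 (SE, adjusted p = 0.00732). Hist1h3c had 3835, 3511 and 3294 and 3109, 2822 and 3362, a difference of -0.20 ± 0.05 (SE, adjusted p = 0.0133). The summed level was 6579 ± 370.7 CPM (SD, n = 3), a difference of -4.47% from untreated 4T1R2, and the groups overlapped. Without untreated replicate 1 both were at -0.14, and without treated replicate 2 Hist3h2a was at -0.17 and Hist1h3c at -0.14, and none of these passed. The count that fell was 0 without untreated replicate 1 or treated replicate 2, 2 without treated replicate 1 and 15 without treated replicate 3. The share of all genes in these fits is not given here, so the counts are descriptions.

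The difference between responses was tested as an interaction. The response of 4T1R2 differed from that of 4T1 in 8 members, all higher in 4T1R2, against 9.62% of all genes higher and 8.16% lower. The count lower was 0 by edgeR and by DESeq2, and 3 at an unadjusted p under 0.05 by edgeR. The median difference was 0.10. For Hist1h3g the response was -0.78 in 4T1 and -0.05 in 4T1R2, and it differed by 0.73 ± 0.12 (SE, adjusted p = 1.88e-05). In 4T1R2 this gene had 1840, 1729 and 1628 normalized counts untreated and 1609, 1464 and 1947 treated. Hist2h4 had responses of -0.53 and -0.04 and differed by 0.50 ± 0.09 (SE, adjusted p = 3.25e-05). The others were Hist1h1d (0.45), Hist4h4 (0.38), Hist1h2an (0.37), Hist1h4b (0.27), Hist2h2ac (0.24) and Hist1h1b (0.22).

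The response of 4T1R1 differed from that of 4T1 in 10 members, 5 higher and 5 lower, against 9.16% and 9.08% of all genes, with a median of 0.01. Higher were Hist3h2ba (1.26), Hist1h3g (0.45, adjusted p = 0.00726), Hist2h4 (0.28, adjusted p = 0.0198), Hist1h1d (0.27) and Hist1h2ab (0.22). Lower were Hist1h3f, at -0.40 ± 0.08 (SE, adjusted p = 0.000217), and Hist1h4c, at -0.37 ± 0.09 (SE, adjusted p = 0.00133), beside Hist1h4k, Hist1h4d and Hist1h1e. Hist1h3f had 5852, 6460 and 6026 normalized counts in untreated and 6559 and 6317 in treated 4T1, and 5629, 6491 and 5203 in untreated and 4278, 4767 and 4813 in treated 4T1R1. Hist1h4c had 4622, 5556 and 5348 normalized counts in untreated and 5842 and 5736 in treated 4T1, but 4990, 5441 and 4585 in untreated and 3904, 4636 and 4450 in treated 4T1R1. The call of Hist1h3g was lost without treated 4T1 replicate 3 (0.37) and under DESeq2 (0.46). That of Hist2h4 was lost under DESeq2 (0.29) and without untreated 4T1R1 replicate 3 (0.20), treated 4T1R1 replicate 2 (0.24), untreated 4T1 replicate 2 (0.23) or 3 (0.25), or treated 4T1 replicate 3 (0.25). The balance of higher and lower members depended on scaling: with total counts alone 19 members were higher and 2 lower, the median of all genes moved to 0.146, and 3536 genes were higher and 419 lower in place of 1237 and 1227. The 4T1R1 interaction is therefore given relative to the median of all genes.

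Other gene lists were counted in the same way, and their counts are descriptions to be read against the shares of all genes. Those shares were 25.2% higher and 27.5% lower in untreated 4T1R1, 25.6% and 26.9% in untreated 4T1R2, 18.4% and 17.9% in treated 4T1, 13.9% and 14.3% in treated 4T1R1, and 6.18% and 4.35% in treated 4T1R2.

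Genes that make and process histone mRNA were followed as a list of 24. In untreated 4T1R1 5 rose and 12 fell, and in 4T1R2 7 rose and 6 fell. Under 17-DMAG 6 rose and 9 fell in 4T1, 5 rose and 3 fell in 4T1R1, and 3 rose and 2 fell in 4T1R2. Slbp, whose product binds the stem-loop printed above, had 3227 ± 122.2 normalized counts in untreated 4T1 (SD, n = 3), 2282 ± 120.6 in untreated 4T1R1 and 2464 ± 40.6 in untreated 4T1R2. It was lower in both, with log2 differences of -0.50 ± 0.04 (SE, adjusted p = 4.15e-13) and -0.39 ± 0.04 (SE, adjusted p = 3.81e-10). Treated 4T1 had 2329 ± 89.6 (SD, n = 2), a difference of -0.47 ± 0.05 (SE, adjusted p = 1.17e-10). The response was higher than this in 4T1R1, by 0.48 ± 0.06 (SE, adjusted p = 3.02e-07), and in 4T1R2, by 0.42 ± 0.06 (SE, adjusted p = 3.02e-06). Treated 4T1R1 and 4T1R2 had 2306 ± 106.7 and 2388 ± 67.5 (SD, n = 3 each), and Slbp did not pass the test in either.
Npat, for the coactivator of histone transcription, was at 0.04 ± 0.05 (SE, adjusted p = 0.564) in treated 4T1. Without treatment, its level ranged from 2253 to 2351 normalized counts for 4T1, 2379 to 2545 for 4T1R1 and 2471 to 2590 for 4T1R2. Both resistant populations thus lay above 4T1 without overlap, the opposite direction to Slbp. The test result for these Npat differences is not given here, so the levels are a description. Sympk, for the scaffold of the 3' end cleavage complex, rose in 4T1R1 (0.28) and 4T1R2 (0.40), and Upf1, for a helicase that acts in histone mRNA decay, fell (-0.28 and -0.36). Yy1, for a transcription factor, fell in treated 4T1 (-0.39).

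The replacement histones, which are made outside DNA replication from ordinary polyadenylated mRNAs, were counted next. Of 11 tested, 3 rose and 5 fell in 4T1R1, 4 rose and 5 fell in 4T1R2, and 2 fell in treated 4T1, 6 in treated 4T1R1 and 2 in treated 4T1R2. Cenpa, for the centromeric H3, was lower in both resistant populations (-0.63 and -0.70). H1f0, a linker histone of resting cells, was at -0.15 in 4T1R1 and -0.54 in 4T1R2. H2afj, an H2A variant (0.68 and 0.58), and H2afy3, a macroH2A (1.19 and 1.73), were higher.

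Of 26 histone chaperones, 4 rose and 11 fell in 4T1R1, 8 rose and 8 fell in 4T1R2, and 4 rose and 10 fell in treated 4T1. In treated 4T1R1 and 4T1R2 4 and 2 rose and 6 and 1 fell. Asf1b, for a carrier of H3 and H4, differed by -0.51 in 4T1R2 (adjusted p = 7.69e-13). Anp32e, for a chaperone that removes H2A.Z, differed by -0.65 (adjusted p = 6.81e-20) and Set by -0.36 (adjusted p = 2.27e-16) in 4T1R1.

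Genes of DNA replication fell with the histones in treated 4T1, 33 of 45 with 1 higher and a median of -0.24. There were 19 lower and 1 higher in treated 4T1R1 and 10 lower in treated 4T1R2. The response was higher than in 4T1 for 22 of the 45 in 4T1R1 and 24 in 4T1R2. Rrm2, for a subunit of ribonucleotide reductase, fell in treated 4T1 by a log2 difference of -0.71 ± 0.04 (SE, adjusted p = 1.78e-19), as did Uhrf1 (-0.53) and the helicase gene Mcm3 (-0.52). Dbf4 went the other way, with means of 4699 normalized counts in untreated and 5428 in treated 4T1. Its means were 22861 in untreated 4T1R1 and 71310 in untreated 4T1R2. In untreated 4T1R1 15 of these genes rose and 18 fell, with a median of -0.03, and in untreated 4T1R2 11 rose and 19 fell. Of 30 mitosis genes, 26 fell in 4T1R1 and 21 in 4T1R2, with medians of -0.20 and -0.15. Treated 4T1 had 11 higher and 8 lower. Cenpf, for a kinetochore protein, rose there, with a difference of 0.67 ± 0.03 (SE, adjusted p = 3.54e-21). The part of these groups in the members' values was not tested.

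**Figure D5:**
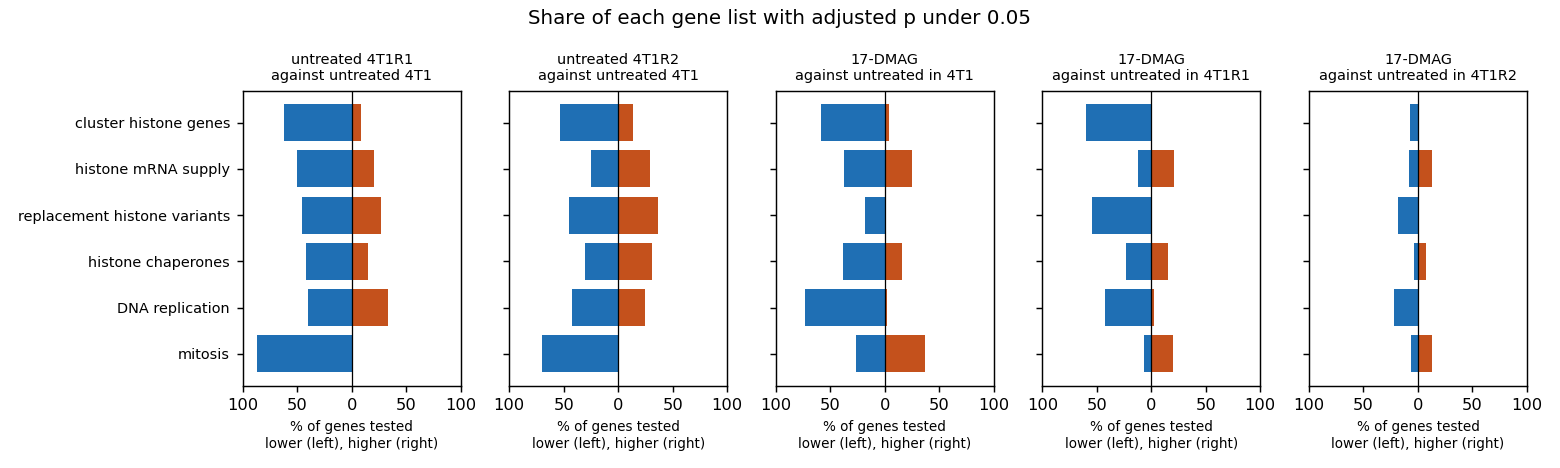
Percent of the genes tested that fell (bars to the left) and rose (bars to the right), for the 58 histone cluster genes and 5 gene lists in 5 comparisons. In treated 4T1 the DNA replication list, with 33 of 45 lower, and the histone genes, with 34 of 58, have the longest bars to the left.

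Over the 17 samples, members moved together to unlike degrees. Each member was correlated with the mean of the others (Pearson's r of log2 levels, n = 17, all normalized in the same libraries). The value reached 0.94 for Hist1h2bb, but was 0.4 for Hist1h1b, 0.19 for Hist1h2ak and 0.16 for Hist1h2bk. It was lowest for Hist1h1a and Hist1h2aa, both -0.47, and Hist1h2ba, -0.34. Of these 3, Hist1h2aa and Hist1h2ba entered only through the groups in which they were high, so their r is a description. Among 10277 other genes, those most like the members' mean profile were Kif22 (r = 0.905), for a chromosome-associated kinesin, Arrdc1 (0.904), Cep170b (0.881), Sbf1 (0.88), Fam171a2 (0.878), Smarca4 (0.875), for the ATPase of a chromatin remodeling complex, Cnot3 (0.874), for a subunit of the deadenylase complex, Mmp14 (0.874), Phlpp1 (0.872) and Igsf9 (0.865). Values over 0.9 were found for 2 genes. In untreated 4T1R1 the genes named here had log2 differences from -0.38 (Igsf9) to -0.03 (Smarca4), against a members' median of -0.23. The means used count every member alike on the log2 scale. They include Hist1h2aa and Hist1h2ba, which passed the filter only through their high groups. These correlations follow 6 groups and are descriptions.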

How the data were processed

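RNA was sequenced from 18 libraries made from total RNA after depletion of ribosomal RNA. The authors deposited whole-number counts of reads per gene, not normalized. The submitters' processing notes name STAR (version not given there), Subread 1.6.2 with featureCounts, bcl2fastq 2.20 and the mm10 and GRCm38 builds; how reads matching several genes were counted, and with which strand setting, is not given in the sources used here. Samples were grouped by the population and treatment in the labels. The study calls the replicates biological triplicates without saying whether they were separate cultures, so p-values measure only the spread between these samples. The sources differ on the culture medium, which is not given here.

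The test was that of edgeR 4.0.16, run in R 4.3.3. After filterByExpr 13507 genes remained, and counts were scaled with TMM and fitted with 6 groups and no intercept by the quasi-likelihood method. p was adjusted by Benjamini and Hochberg over all genes, with 0.05 as threshold, and 8 contrasts were made. The script was tested on simulated data. Library totals of 23354461 to 55094630 counts bound the precision. Of counts from 1 to 12, 65.6% to 70.8% were even, so that a count is not 1 independent molecule and floors cover counting error only. Replicates 1 and 2 of treated 4T1 had a chi-square per gene of 1.10, against 2.04 to 2.22 for the other 17 pairs within groups, and were averaged.

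Members were named when they had the 2 highest totals of their class, or 1 of the 2 largest rises or falls past the threshold in a comparison, provided that the mean of the higher group reached 100 normalized counts. Members outside that rule (the low genes Hist1h1a, Hist1h2aa, Hist1h2ba, Hist3h2ba and Hist3h2bb-ps, and Hist4h4, Hist1h2an and others listed by count) were chosen after their values were seen. For each gene list the 4 genes with the smallest adjusted p were candidates for naming. The members and the lists were chosen with earlier results of these data known. Alternatives were other scalings (RLE, total counts alone, TMM without the histone genes and Rn45s), no filter, DESeq2 1.42.0, a minimum of 540 counts, all 18 libraries with and without a replicate block, only the groups compared, and leaving out each sample. Fold changes or p-values by the authors were not used. Markers of fibroblasts and endothelium gave summed levels of 11.5 to 34.0 and 0.06 to 0.581 CPM, and a further marker list is not reported here.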

Additional observations from a re-analysis of the deposited data

Results flagged for a closer look

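The response to 17-DMAG differed between 4T1 and the resistant populations in some histone genes by the interaction term of the same edgeR fit. Against 4T1, the response of 4T1R1 was higher in 5 of 58 members and lower in 5, beside 9.16% and 9.08% of all genes, and that of 4T1R2 was higher in 8 and lower in 0, beside 9.62% and 8.16%. At an unadjusted p under 0.05 that last count was 3 by edgeR, and by DESeq2 it was 0. For 4T1R1 both counts lay near the shares of all genes, and the median of the members was 0.01. Among the abundant members, Hist1h3g responded higher by 0.45 in 4T1R1 and by 0.73 in 4T1R2 on the log2 scale, and Hist2h4 by 0.28 and 0.50. The 4T1R1 calls of both genes were lost under DESeq2. In 4T1R1, the response of Hist1h3f was lower (-0.40), as was that of Hist1h4c (-0.37). All of these comparisons share the 2 samples of treated 4T1.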

How the results depend on the processing

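With total counts alone, 0 members rose in treated 4T1, where 1193 of 13507 genes rose. In treated 4T1R2 17 fell, beside 1146 of all genes. In the 4T1R1 interaction 19 were higher and 2 lower, beside 3536 and 419, and in that of 4T1R2 13 were higher, beside 2091. DESeq2 gave 0 that rose in treated 4T1 and 3 higher in the 4T1R1 interaction. The share of all genes by DESeq2 is not given here, so these counts are descriptions. Without a filter, 8 fell in treated 4T1R2, beside 577 of 18785 genes. There 9 were lower in the 4T1R1 interaction and 3 in that of 4T1R2, beside 1244 and 1068 of all genes. With only the groups compared, 9 fell in treated 4T1R2, beside 643 of 12710 genes, and 3 were lower in the 4T1R2 interaction, beside 1127 of 13225. A minimum of 540 counts left 3 members that rose in untreated 4T1R1, as did leaving out Hist1h2aa and Hist1h2ba, an alternative added after seeing the data. With all 18 libraries, 1 member was lower in the 4T1R2 interaction, both without and with the replicate block, beside 1271 and 1242 of 13303 genes. Equal replicate numbers did not mark paired samples: the correlations of deviations ranged from -0.0258 to 0.0398 over 9 pairs.

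Leaving out 1 sample at a time gave 5 to 8 members higher in 4T1R2 against 4T1 (5 without untreated 4T1R2 replicate 1), and 8 to 16 higher in 4T1R2 against 4T1R1 (8 without untreated 4T1R1 replicate 3 or untreated 4T1R2 replicate 1). It gave 0 to 2 higher and 17 to 36 lower in treated 4T1, 0 to 15 lower in treated 4T1R2, 1 to 9 higher and 5 to 8 lower in the 4T1R1 interaction, and 0 to 3 lower in that of 4T1R2. Of the recomputed counts, 394 stayed within 1.5 times and 38 moved further. Among named members, 34 recomputed values lost the threshold with their direction kept. No result that passed the test reversed its direction, but untested medians near 0 changed sign when 1 sample was left out: that of 4T1R2 against 4T1R1 ranged from -0.04 to 0.03 and that of the 4T1R1 interaction from -0.03 to 0.05. Causes of these differences were not tested, and DESeq2 also lost the 4T1R1 interactions of Hist1h3g and Hist2h4.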
